A study of Mus musculus with 2 samples.

Results

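The immunoglobulin heavy and light chain loci were examined for open chromatin in newborn mouse thymus. Their members were the 264 V, D, J and C segments that the GENCODE M21 annotation lists as genes, not as pseudogenes, at the heavy chain locus Igh on chromosome 12 (144 segments), the kappa light chain locus Igk on chromosome 6 (108 segments) and the lambda light chain locus Igl on chromosome 16 (12 segments), out of 55413 annotated genes on the main chromosomes. A further 159 pseudogene segments, 85 at Igh and 74 at Igk, were not members. Open chromatin was measured by DNase-seq, which maps DNA that the nuclease DNase I can cut, in whole thymus of strain B6NCrl at postnatal day 0, from pooled male and female animals. There was 1 group of 2 biological replicates, which the labels give as separate biosamples with the same donor identifier, so differences between them may be technical. No treated, mutant or adult group was present, and no test between groups was possible. A peak here is a 150 bp interval that the authors called in 1 library, and replicate 1 peaks that overlapped one of replicate 2 by at least 1 bp are called shared. The score of a peak is the authors' own value, from 1 to 150, whose meaning is not given in the sources used here. It was used to order peaks. A rank is a peak's place in its list, counted from the lowest score, as a percentage of the list, with tied scores given their average place. Scores of the 2 lists are given side by side, and since their scale may differ, raw scores do not show which replicate was higher.

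B cells make antibodies from gene segments that are cut and joined in V(D)J recombination. The RAG1 and RAG2 recombinase cuts at a recombination signal beside each segment, made of a heptamer and a nonamer with a spacer of 12 or 23 bases between them. At Igh, a D segment is first joined to a J segment, and a V segment is then joined to the DJ unit. T cell precursors in the thymus use the same recombinase on the T cell receptor loci, and are known to carry D to J joins at Igh in some cells, whereas V to DJ joining at Igh and all joining at Igk and Igl belong to B cell precursors. Enhancers in the interval between the J and C segments of Igh and far beyond its last C segment, and sites of the loop-forming protein CTCF among the V segments, are known parts of Igh control in B cells.

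Replicate 1 had 154812 peaks and replicate 2 had 139702, and 67.3% and 74.8% of them were shared. The number of reads was not given, so the depth behind a missing peak is unknown, and a missing peak means only that none was called. The tissue label was checked on promoters, taken as 1000 bp on each side of a coding transcript's start. All 12 T cell and thymocyte markers had a promoter peak in both replicates, against 62.2% of coding genes. None of 4 thymic epithelium markers (Foxn1, Psmb11, Krt5 and Krt8) had one in either replicate. In bulk tissue a site that is open in few cells and one that is weakly open in many cannot be told apart.

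The sequences that the results below turn on come first, read from the mouse GRCm38 assembly, the assembly of the deposited files. The first set is the 3′ end of 6 V segments, the side at which a V segment is cut for joining. Each line gives the last 10 bases of the segment and the next 130, in the direction of transcription. Capitals mark an exact heptamer (CACAGTG), an exact nonamer (ACAAAAACC), the RUNX consensus (TGTGGTT, on either strand) or the CTCF core consensus. Ighv5-2 and Ighv2-3 are examples with a CTCF match, and Ighv1-82, Ighv1-85 and Ighv14-2 examples with a RUNX match, all 5 with a shared peak. Igkv3-1, the kappa V segment nearest the J segments, had no peak in either replicate and is shown beside them.
Ighv5-2 (chr12:113578374-113578513): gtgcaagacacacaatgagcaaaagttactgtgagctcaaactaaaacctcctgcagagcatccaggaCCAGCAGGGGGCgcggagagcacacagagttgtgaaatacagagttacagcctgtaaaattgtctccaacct
Ighv2-3 (chr12:113611057-113611196): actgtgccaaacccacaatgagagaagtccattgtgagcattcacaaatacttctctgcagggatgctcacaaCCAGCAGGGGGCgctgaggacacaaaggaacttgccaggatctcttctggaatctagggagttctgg
Ighv1-82 (chr12:115952408-115952547): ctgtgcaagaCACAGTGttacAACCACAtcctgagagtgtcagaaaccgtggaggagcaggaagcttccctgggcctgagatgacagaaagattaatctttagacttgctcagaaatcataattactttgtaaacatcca
Ighv1-85 (chr12:115999898-116000037): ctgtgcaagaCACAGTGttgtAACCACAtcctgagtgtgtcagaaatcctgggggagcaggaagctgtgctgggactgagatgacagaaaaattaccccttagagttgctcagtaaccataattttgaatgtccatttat
Ighv14-2 (chr12:113994339-113994478): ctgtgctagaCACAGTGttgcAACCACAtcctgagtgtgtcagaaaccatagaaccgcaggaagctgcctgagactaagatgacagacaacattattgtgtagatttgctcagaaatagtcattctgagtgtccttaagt
Igkv3-1 (chr6:70704168-70704307): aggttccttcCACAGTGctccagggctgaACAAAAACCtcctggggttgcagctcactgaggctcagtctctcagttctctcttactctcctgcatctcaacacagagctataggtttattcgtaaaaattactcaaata
In the Ighv1-82, Ighv1-85 and Ighv14-2 lines the heptamer follows the segment directly. The RUNX consensus lies on the strand opposite to the segment, so it is printed as AACCACA, and it falls inside the spacer of the recombination signal. In the Ighv5-2 and Ighv2-3 lines no exact heptamer was found, although 10 of the 16 Ighv2 and Ighv5 segments with a CTCF match have one. The CTCF match lies on the strand of the segment, beyond the recombination signal. In the Igkv3-1 line the exact heptamer and the exact nonamer are 12 bases apart.

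The second set is the peaks outside V segments on which the results turn, each as the 150 bases of the peak in replicate 1. They are the strongest shared peaks of the Igh V region, the Igh D region and the interval between V and J segments of Igk, the peak over the D segment Ighd4-1, the peak nearest Ighj4 in the interval between J and C segments, and the stronger of 2 peaks with a CTCF match beyond the last C segment. The Igh V region, D region, Ighd4-1 and Ighj4 lines run in the direction of Igh transcription, the minus strand, and the other 2 run along the plus strand. Capitals mark CTCF, RUNX, the E-box CACCTG bound by E proteins, and the ETS consensus AGGAAG, each on either strand, and in the Ighd4-1 line the heptamer, the nonamer and ETS. That heptamer is on the 5′ side of the D segment and that nonamer on its 3′ side, so they are not parts of the same signal. A signal on the 5′ side reads away from the segment, on the other strand. The marked CACAGTG runs toward the segment, so it is not an exact heptamer of that signal.
Igh V region (chr12:114587356-114587505): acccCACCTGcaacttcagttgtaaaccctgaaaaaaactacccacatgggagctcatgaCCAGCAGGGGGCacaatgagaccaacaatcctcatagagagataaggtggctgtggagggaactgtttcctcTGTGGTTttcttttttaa
Igh D region (chr12:113487796-113487945): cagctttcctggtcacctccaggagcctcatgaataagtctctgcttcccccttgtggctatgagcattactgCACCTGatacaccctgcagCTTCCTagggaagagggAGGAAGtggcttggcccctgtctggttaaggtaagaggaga
Ighd4-1 (chr12:113430456-113430605): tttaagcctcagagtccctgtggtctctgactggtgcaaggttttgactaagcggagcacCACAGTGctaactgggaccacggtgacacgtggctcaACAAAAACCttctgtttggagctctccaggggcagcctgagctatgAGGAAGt
Ighj4 (chr12:113427436-113427585): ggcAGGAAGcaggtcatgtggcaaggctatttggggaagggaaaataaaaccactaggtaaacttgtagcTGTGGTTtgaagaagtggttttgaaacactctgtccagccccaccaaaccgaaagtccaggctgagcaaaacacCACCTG
Igk V to J interval (chr6:70714376-70714525): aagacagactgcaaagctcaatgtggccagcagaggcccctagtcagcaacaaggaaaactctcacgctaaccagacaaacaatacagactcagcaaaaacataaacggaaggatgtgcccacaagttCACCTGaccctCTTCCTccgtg
Igh 3′ flank (chr12:113219956-113220105): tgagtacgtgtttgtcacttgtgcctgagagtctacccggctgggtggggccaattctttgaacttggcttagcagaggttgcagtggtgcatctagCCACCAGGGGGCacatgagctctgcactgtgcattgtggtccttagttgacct
Each of these matches is a description of the letters and not a measurement of binding.

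Peaks lay at many Igh segments and at almost no light chain segment. Within 1000 bp of the segment, 50 of 113 Igh V segments had a shared peak (44.2%), against 7.5% of 1067937 windows of the same length laid end to end along the main chromosomes. Replicate 1 had a peak at 58 of these V segments and replicate 2 at 56. Another 13 had peaks that did not overlap between the replicates, or a peak in 1 replicate only (11.5%, against 3.63% of such windows), and 50 had no peak in either. At Igk, 0 of 102 V segments had a shared peak. The 3 with a peak in 1 replicate were Igkv2-112 and Igkv3-4 in replicate 1, with scores of 17 and 9, and Igkv3-5 in replicate 2, with a score of 12. None of the 3 V segments of Igl had a peak in either replicate. The Igh share of V segments was therefore above that of genome windows and the Igk share below it, and 3 Igl V segments are too few to set against it.

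**Figure D1:**
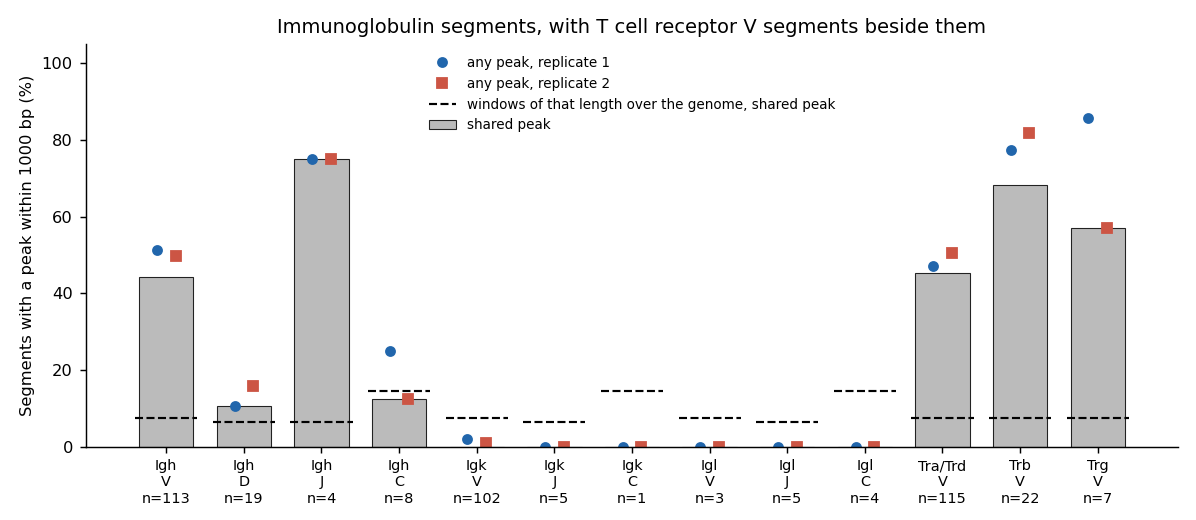
Percentage of segments of each class (n below each bar) with a peak within 1000 bp. Bars are shared peaks, circles and squares any peak in replicate 1 and replicate 2, and dashed lines the share of genome windows of that class's length with a shared peak. Igh V segments stand at 44.2% and Igk V segments at 0.

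Thymocytes recombine the T cell receptor loci. The share of V segments with a shared peak was close to that of Igh (44.2%) at Tra/Trd, and above it at Trb and at Trg, which has few V segments. A shared peak lay at 52 of 115 V segments of Tra/Trd (45.2%), at 15 of 22 V segments of Trb (68.2%) and at 4 of 7 V segments of Trg. Over all classes the counts were 56 of 144 segments at Igh (38.9%) and 77 of 172 at Tra/Trd (44.8%). They were 32 of 39 at Trb (82.1%) and 5 of 15 at Trg (33.3%), so the share at Trg was below that at Igh. All 3 T cell receptor loci held more shared peaks per 100 kb than Igh, which had 6.4. Counted with 50 kb on each side, the values were 12.3 for Tra/Trd, 10.8 for Trb and 9.1 for Trg. These are counts from the same pair of libraries, with no test of their difference. Among J segments of the T cell receptor loci, 13 of 13 at Trb, 22 of 53 at Tra/Trd and 0 of 4 at Trg had a shared peak. At the immunoglobulin loci, 3 of 4 Igh, 0 of 5 Igk and 0 of 5 Igl J segments had one. The counts for C segments were 2 of 2 at Trb, 2 of 2 at Tra/Trd and 1 of 4 at Trg.

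Among the other Igh classes, 3 of 4 J segments, 2 of 19 D segments and 1 of 8 C segments had a shared peak. The shares of genome windows of matching length were 6.49% for J, 6.43% for D and 14.5% for C. The J count rests on 2 peaks that both lie outside the J cluster. Ighj1 and Ighj2 share the peak over Ighd4-1 with each other, Ighj4 was reached by the first peak of the interval between J and C segments, and Ighj3, between them, had none. No peak had its midpoint in the 1.32 kb from Ighj4 to Ighj1 in either replicate.

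D segments are short coding pieces flanked by recombination signals on both sides. Ighd4-1, the D segment nearest the J cluster, lay inside the shared peak printed above, which scored 40 in replicate 1 and 38 in replicate 2. The other D segment with a shared peak was Ighd3-2, whose peak (chr12:113448216-113448365) scored 43 and 30, and replicate 2 had 2 further peaks there that replicate 1 lacked. Ighd1-1 had a peak in replicate 2 only. The other 16 D segments had no peak in either replicate. The strongest peaks of the D region lay outside D segments. A pair upstream of Ighd1-1, 3043 and 5603 bp from it, scored 80 and 59 at the first (chr12:113485236-113485385) and 95 and 84 at the second, the printed one. A shared peak near Ighd3-2 (chr12:113446196-113446345) scored 73 in both replicates. The D region held 7 peaks in replicate 1, all shared, and 12 in replicate 2.

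C segments encode the constant part of each antibody class, and 7 of 8 had no shared peak. Ighm, Ighg3, Ighg1, Ighg2b, Ighg2c and Ighe, which encode the IgM, IgG and IgE heavy chains, had no peak in either replicate. Igha, which encodes the IgA heavy chain, had 1 in replicate 1 alone. Ighd, the IgD gene, had a shared peak inside it (chr12:113410936-113411085) with scores of 64 and 55.

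The interval between the J and C segments was the densest of the regions counted. In its 5.783 kb, from Ighj4 to Ighm, lay 5 shared peaks, at 928, 1768, 3008, 3528 and 3868 bp beyond the 3′ end of Ighj4. Their scores in replicates 1 and 2 were 67 and 81, 48 and 50, 87 and 92, 69 and 80, and 63 and 73. All 5 ranked higher in replicate 2, by a median of 9.3 percentage points, whereas 58.9% of all shared peaks ranked higher in replicate 1. The peak nearest Ighj4 held 1 RUNX, 1 ETS and 1 CACCTG match. The next one (chr12:113426596-113426745) held the E-box CAGCTG, which reads the same on both strands. The octamer ATGCAAAT is a binding sequence of POU factors that is known in B cell enhancers and in V promoters. None of these 5 peaks held it within the called bases, and 0.715% of all shared peaks did. Bases beyond the peak edges were not part of this count, so an octamer just outside a peak would be missed. Its absence from the open sites is therefore not shown. This interval is the one in which the intronic heavy chain enhancer is known to lie, and the files do not mark which peak, if any, is that element. The 2 peaks nearest Ighm are rich in recurring sequence: 50.8% and 74.2% of their words of 31 bases occur elsewhere in the assembly.

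Beyond Igha, the last C segment, the 3′ flank held 11 shared peaks, all between 29.5 and 38.8 kb from its 3′ end. Their scores ran from 30 to 108 in replicate 1, and the overlapping peaks of replicate 2 scored from 21 to 111. The strongest (chr12:113222136-113222285) scored 100 and 111. Of these 11 peaks, 2 held the CTCF consensus, both on the plus strand, and the printed one scored 108 and 94. Their median rank was 77.9 in replicate 1, against 64.3 for all shared peaks. None of the 11 held a recurring word of 31 bases.

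**Figure D2:**
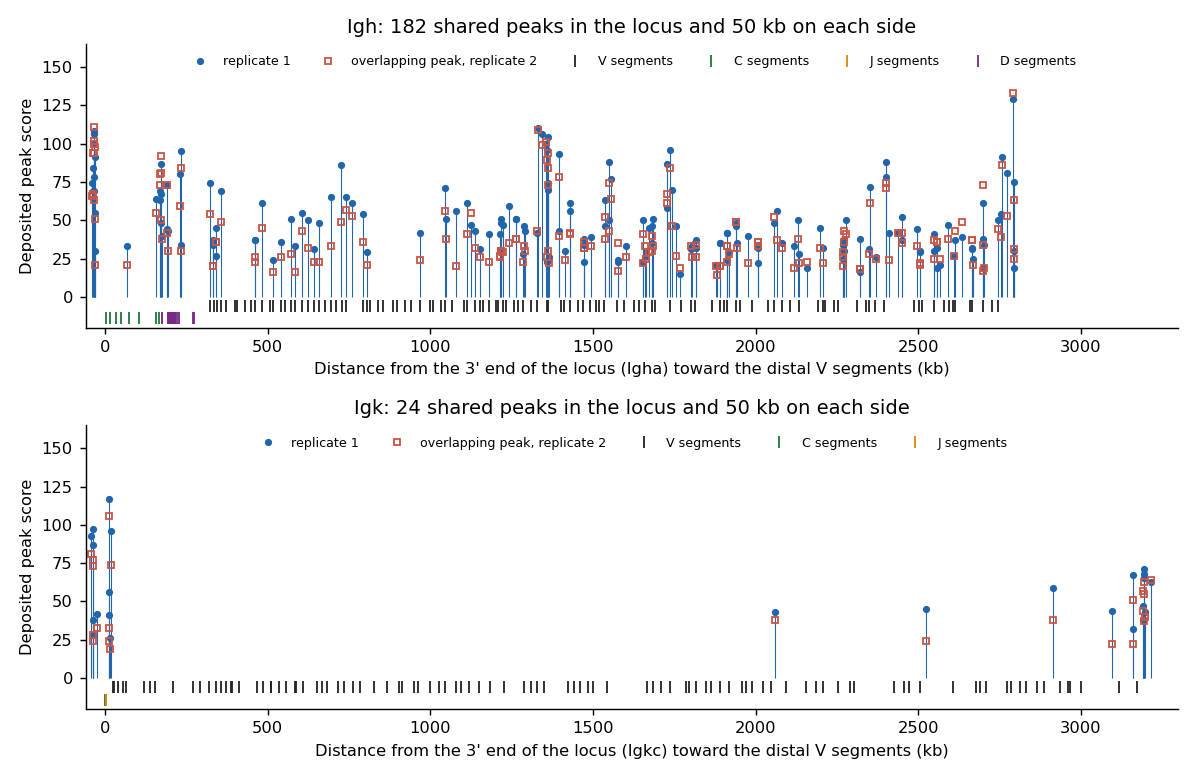
Shared peaks along Igh (upper) and Igk (lower), by deposited score (circles, replicate 1; squares, the overlapping peak of replicate 2) and distance from the 3′ end of the locus in kb. Ticks mark the segments of each class. Igh shows 182 shared peaks spread over its length and Igk 24, of which 11 lie in the locus and the rest in its flanks.

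Counted over a whole locus with 50 kb on each side, Igh held 182 shared peaks, or 6.4 per 100 kb, Igk held 24, or 0.734 per 100 kb, and Igl held none. The main chromosomes had 3.81 per 100 kb. Peak density at Igh was 8.59 ± 0.373 per 100 kb (SD, n = 2) and at Igk 1.13 ± 0.0432 (SD, n = 2). Peaks in 1 replicate only numbered 120 at Igh, 70 in replicate 1 and 50 in replicate 2, and 26 at Igk. Of the 70 in replicate 1, 33 formed a run of 20.5 kb around Ighv1-23 and Ighv1-24 (chr12:114759856-114780325), found after the data were seen. Its scores were from 8 to 27, and replicate 2 had 0 peaks there. Stretches of the length of Igh, laid end to end along the chromosomes, held a median of 80.5 shared peaks, and 78.9% of 946 held fewer than Igh. Of 822 stretches of the length of Igk, 22% held as few as Igk, against a median of 98. At Igl, 31.3% of 9099 stretches of its length likewise held none. These stretches were not filtered for assembly gaps, where no peak can be called, so gaps add to the shares with few or none.

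The Igh excess was made of peaks of middle and low rank. Shared peaks at Igh had a median rank of 45.9 in replicate 1, below the 64.3 of all shared peaks. When each list was restricted to its stronger 50% of peaks, Igh kept 63 shared peaks, or 2.21 per 100 kb, and the main chromosomes 2.27 per 100 kb, so the higher density was not present among strong peaks. Igk stayed below the chromosomes at 0.306 per 100 kb. Calls at Igh also overlapped one another more often: 32.1% of its peaks in replicate 1 and 32.9% in replicate 2 overlapped another peak of the same list, against 6.68% and 9.24% on the main chromosomes. Merging shared peaks that overlap left 151 separate sites at Igh of the 182.

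Within Igh, 149 of the 182 shared peaks lay in the V region. Of these, 65 were within 1000 bp of a functional V segment, 16 were within 1000 bp of a pseudogene V segment only, and 68 were near neither. The V region was split into 4 sections of equal length, counted from the D segments. A shared peak lay at 19 of 34 V segments in section 1, 11 of 33 in section 2, 10 of 23 in section 3 and 10 of 23 in section 4. Peaks were thus found at V segments along the whole of the region. Its longest stretch without a shared peak was 162.9 kb.

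V segments fall into subgroups by sequence, and segments of a subgroup descend from a common sequence, so they are not independent of each other. Shared peaks lay at 22 of 53 Ighv1 segments, 6 of 9 Ighv2, 6 of 10 Ighv5, 3 of 5 Ighv6, 3 of 4 Ighv7, 2 of 9 Ighv8, 2 of 4 Ighv14, 1 of 4 Ighv9, both Ighv11 segments, 1 of 2 Ighv10, and the lone Ighv4 and Ighv12 segments. None of 6 Ighv3 segments had a shared peak, although 2 of them had peaks that did not overlap between the replicates or were in 1 replicate. The lone Ighv13, Ighv15 and Ighv16 segments had no shared peak.

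By the mean of both scores, the 10 V segments with the strongest shared peak within 1000 bp were led by 3 of the Ighv1 subgroup. Ighv1-12 had scores of 104 and 94, Ighv1-11 of 96 and 89, and Ighv1-47 of 96 and 84. Next came Ighv11-1 with 86 and 49, Ighv1-82 with 61 and 73, Ighv1-67 with 72 and 61, and Ighv5-2 with 74 and 54. The last of the 10 were Ighv9-4 with 71 and 56, Ighv14-2 with 65 and 57, and Ighv2-3 with 69 and 49. By rank, Ighv1-82 alone of these 10 stood higher in replicate 2, at 65.2 and 77.2. For 2 of the 10 the peak scored was not at the 3′ end. That of Ighv1-12 had its midpoint 479 bp beyond the end, and that of Ighv1-67 lay upstream, at -1231 bp from the end, while the Ighv1-67 peak at the 3′ end scored 31 and 28.

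The strongest shared peak of the V region (chr12:114587356-114587505, scores 110 and 109) was at no V segment. Its midpoint lay 3429 bp upstream of Ighv1-9, and it held a CTCF, a CACCTG and a RUNX match, as printed above. It belongs to a run of strong peaks chosen after their values were seen. That run includes one beside the pseudogene Ighv1-10 (chr12:114597776-114597925, scores 106 and 99), one 2812 bp beyond Ighv1-11 (chr12:114609356-114609505, scores 100 and 101), and the peaks of Ighv1-11 and Ighv1-12.

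Peaks at V segments lay at the 3′ end, where most overlapped the recombination signal, rather than over the promoter. Of the 50 Igh V segments with a shared peak, 45 had one that overlapped the 39 bases after the segment by at least 1 bp. That is the length of a heptamer, a 23 base spacer and a nonamer. In the 200 bases from 50 before to 150 after the 3′ end, 46 of 113 Igh V segments had a shared peak, against 1.37% of 200 bp windows of the main chromosomes, and 0 of 102 Igk V segments had one. These windows and offsets were chosen after the peaks had been seen. Midpoints of the shared peaks near the 3′ end had a median of 53.5 bp beyond it in replicate 1 and 38.5 bp in replicate 2. By subgroup the median in replicate 1 was 60 bp for Ighv2 and Ighv5, 59 bp for Ighv6 and Ighv7, and -5 bp for Ighv1, that is, at the end of the segment. Replicate 2 gave 61.5, 62 and -10 bp. These subgroup medians lay outside the 39 bases, beyond them or before them. The replicate 2 median over all subgroups, 38.5 bp, lay inside them, as did the Ighv14 median of 26 bp in replicate 1 (2 peaks). A second, smaller group of Ighv1 peaks lay more than 1 kb before the 3′ end, upstream of the segment.

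**Figure D3:**
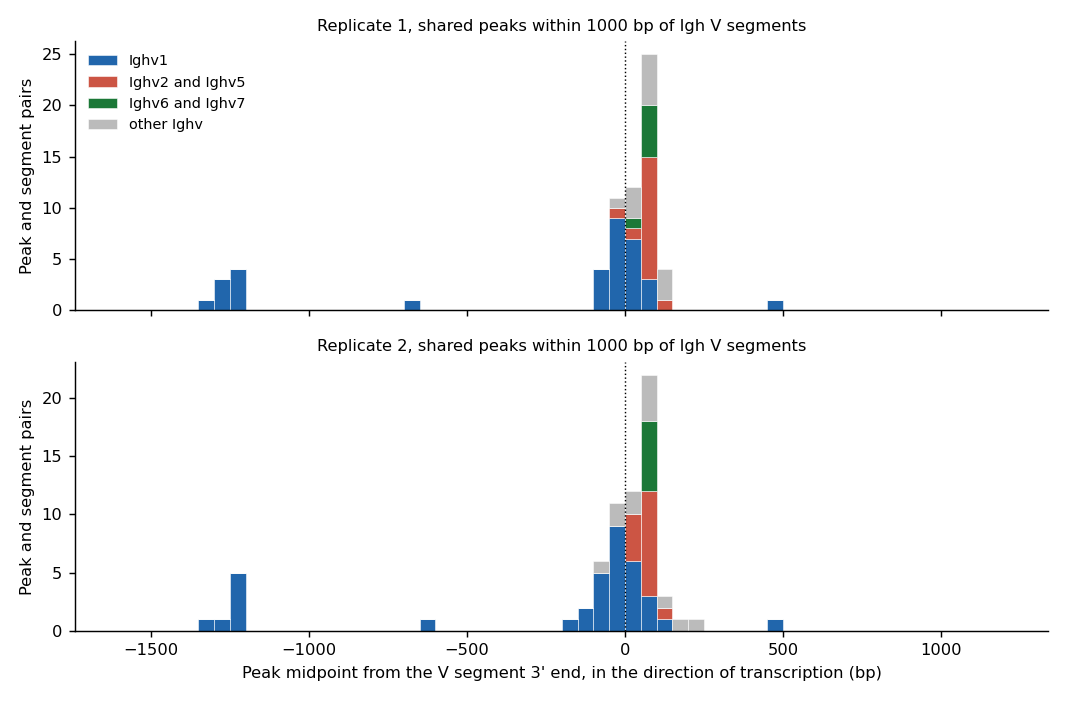
Midpoints of shared peaks within 1000 bp of Igh V segments, in bp from the 3′ end of the segment (dotted line) in the direction of transcription, by subgroup, for replicate 1 (upper) and replicate 2 (lower). Bars count pairs of a peak and a segment. Most pairs sit at the 3′ end, with Ighv2 and Ighv5 centred 60 bp beyond it and Ighv1 at it.

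The start of the V segments gave the opposite picture. V promoters carry the octamer, and it was found in the 250 bases before and 50 after the annotated start in 91 of 113 Igh V segments (80.5%), 74 of 102 Igk V segments (72.5%) and 3 of 3 Igl V segments, against 1.74% of 32851 RefSeq promoters of the same length on GRCm38. A shared peak lay over that window in 1 Igh V segment (0.885%), in 0 Igk and in 0 Igl V segments, against 38.2% of the RefSeq promoters. The window was laid on the annotated start of the V segment, which need not be the start of transcription.

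Heptamers did not separate the loci. An exact CACAGTG began within 5 bases of the 3′ end in 82 of 113 Igh V segments and in 86 of 102 Igk V segments, yet only Igh V segments had shared peaks there. An exact nonamer stood 23 bases after the heptamer in 2 Igh V segments, and 12 bases after it in 30 Igk V segments. The heptamer was found in 4.8% and the nonamer in 0.619% of 200 bp windows of the main chromosomes, on either strand.

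The consensus at the 3′ end differed between subgroups. The CTCF consensus was found in the 200 bases across the 3′ end in 18 of 113 Igh V segments (15.9%), in 0 of 102 Igk V segments and in 0.0932% of 200 bp windows of the main chromosomes. It was present in 7 of 9 Ighv2 and 9 of 10 Ighv5 segments, on the strand of the segment in all of them, and began 56 to 64 bases beyond the 3′ end. Of these 16 Ighv2 and Ighv5 segments, 12 had a shared peak over the window, and of the 3 without a match none had one. The 4 with a match and no shared peak were Ighv2-5, Ighv5-6, Ighv5-9 and Ighv5-12. The share of recurring words was taken over each segment with 1000 bp on each side. It was 44.7% for the Ighv2 segment, against a median of 26.3% for Ighv2 segments with a match and a peak. For the 3 Ighv5 segments the median was 56.3%, against 9.69%. Ighv2-5 had a peak in replicate 1 only, with its midpoint 71 bp beyond the 3′ end. That peak scored 32 and held 8.33% recurring words.

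The RUNX consensus, bound by the RUNX factors of T and B cell development, was found in 54 of 113 Igh V windows (47.8%) and 3 of 102 Igk V windows (2.94%), against 4.67% of 200 bp windows of the main chromosomes. Among Ighv1 segments it was present in 38 of 53, in each at the 12th base beyond the 3′ end and on the opposite strand. A shared peak lay over the window in 17 of those 38 and in 1 of the 15 Ighv1 segments without it, which was Ighv1-12. Counted over the segment with 1000 bp on each side, recurring words had a median of 30.8% in the 17 with a peak. It was 59% in those of the 38 without one. All 4 Ighv9 segments and 3 of 4 Ighv14 segments held the consensus at the same place, and 1 and 2 of these had a shared peak over the window. In the Ighv8 subgroup the consensus lay on the segment's own strand and 110 to 120 bases beyond the end. It was in 8 of 9 Ighv8 segments, 2 of which had a shared peak. No segment of Ighv6 or Ighv7 held either consensus, and 6 of these 9 had a shared peak over the window. Over all Igh V segments, 22 of the 54 with the RUNX consensus and 24 of the 59 without it had one. The difference seen in Ighv1 was thus not present over the locus.

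**Figure D4:**
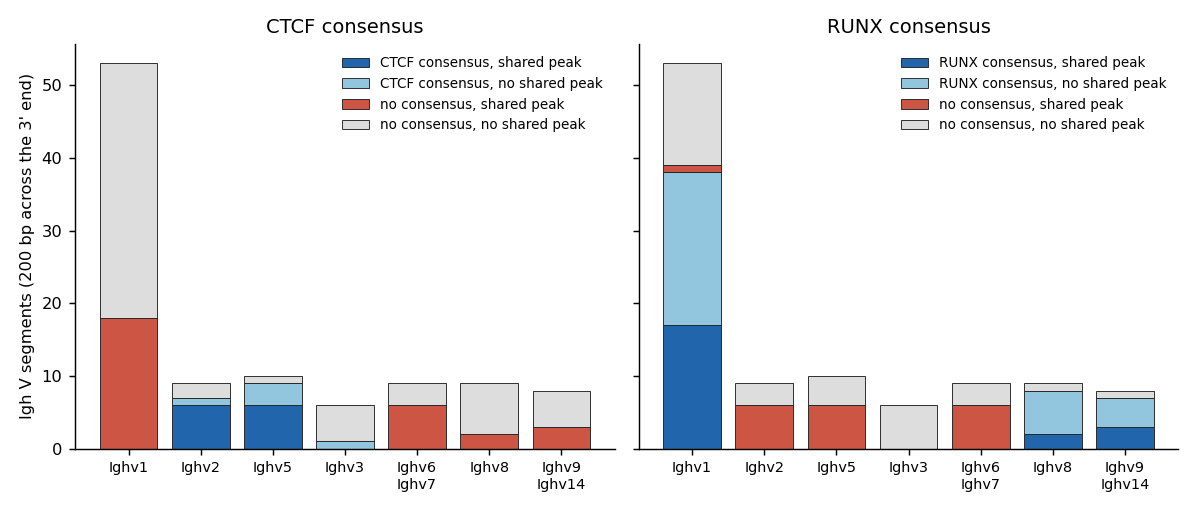
Igh V segments by subgroup, split by whether the 200 bp across the 3′ end hold the CTCF (left) or RUNX (right) consensus and a shared peak. Bar heights count segments. CTCF matches fall in Ighv2, Ighv5 and 1 Ighv3 segment, and RUNX matches in Ighv1, Ighv8, Ighv9 and Ighv14 among the subgroups drawn.

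Recurring sequence went together with missing peaks at Igh. Peak calling depends on reads that can be placed, and how the authors treated reads with several placements is not given in the sources used here. Windows here are the V segment with 1000 bp on each side. Words of 31 bases that occur elsewhere in the assembly were counted in each. Their median share was 26.3% for Igh V segments with a shared peak and 41.7% for those with no peak. Of the 57 windows at or below the Igh median of 32.5%, 33 had a shared peak (57.9%), and of the 56 above it 17 had one (30.4%). At Igk the median over V windows was 39%, and 0 of 51 windows at or below it and 0 of 51 above it had a shared peak. The part of read placement was not tested at either locus.

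Among all 149 shared peaks of the V region, 37 held the CTCF consensus (24.8%), 48 the RUNX consensus (32.2%) and 44 CACCTG (29.5%). The same shares over the 103943 shared peaks of the main chromosomes were 6.35%, 7.92% and 19.5%. ETS was found in 18.1% of V region peaks and 28.9% of all shared peaks. All 37 CTCF matches lay on the minus strand, the strand of all 113 Igh V segments, whereas both CTCF matches in the 3′ flank lay on the plus strand. CTCF and CACCTG occurred together in 13 of the V region peaks, and 45 peaks held none of CTCF, RUNX and CACCTG. By section from the D segments, CTCF was held by 16 of 22, 3 of 40, 7 of 47 and 11 of 40 shared peaks, and RUNX by 2, 14, 21 and 11. Peaks near neither a functional nor a pseudogene V segment held CACCTG in 31 of 68 cases, against 10 of 65 near functional segments. Overlapping calls entered these counts, and the rank counts below, as separate peaks. They made up 32.1% of replicate 1 peaks at Igh and 6.68% on the main chromosomes, so the same site can count more than once.

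The replicates differed in rank at the end of the V region nearest the D segments. In section 1, 21 of 22 shared peaks ranked higher in replicate 1, by a median of 12.5 percentage points, whereas in section 4, 20 of 40 did, with a median difference of -0.55. Over all shared peaks of the main chromosomes the median difference was 1.57. Peaks with the CTCF consensus ranked higher in replicate 1 throughout the genome, in 84.6% of 6604 shared peaks against 57.2% of those without it. In the V region 32 of 37 shared peaks with the consensus and 67 of 112 without it ranked higher in replicate 1. In section 1 all 6 peaks without the consensus did so too. Nothing in the labels marks a batch that would separate these values, and replicate and any technical difference between the libraries cannot be told apart.

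**Figure D5:**
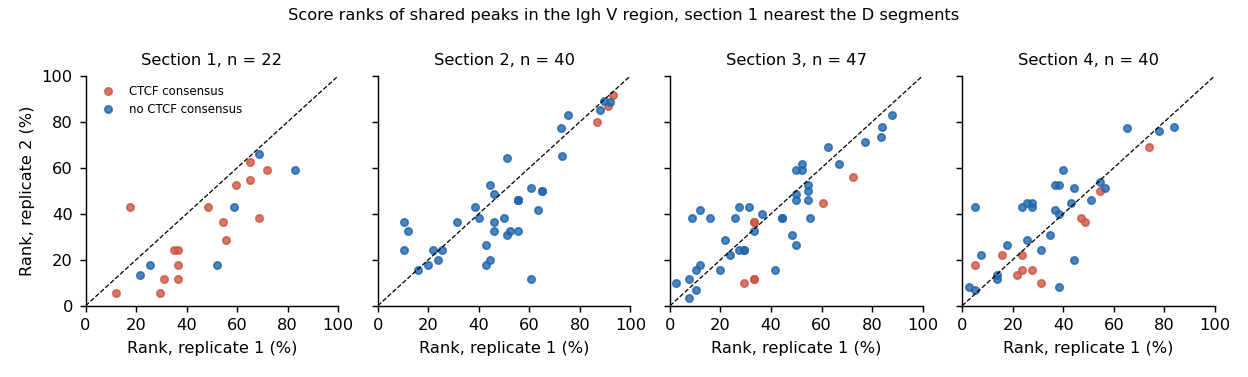
Score rank of each shared peak of the Igh V region in replicate 1 (horizontal, %) and of its overlapping peak in replicate 2 (vertical, %), by section from the D segments, with peaks that hold the CTCF consensus in red. Points below the dashed line rank higher in replicate 1, as 21 of 22 do in section 1.

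Of the 24 shared peaks counted at Igk, 7 lay in the 50 kb flank beside the distal V segments, 6 in the flank beyond Igkc and 11 in the locus itself. The V region of 3149 kb held 6, none within 1000 bp of a V segment, and all 6 in the part farthest from the J segments, so that 2036 kb of it had none. The strongest of them (chr6:67566396-67566545) scored 67 and 51, 10255 bp beyond Igkv2-137. The 18.38 kb between the last V segment and Igkj1 held 5, at 8.04 to 13.1 kb from Igkj1. The interval is known to hold elements named Cer and Sis, which act in B cell precursors on the choice of V segments, and the files do not mark them. Its strongest peak, printed above, scored 117 and 106 and ranked at 95.2 and 90.7. A second (chr6:70709416-70709565) scored 96 and 74. No peak of either replicate lay in the J cluster, the interval between J and C segments, where the intronic kappa enhancer is known to lie, or Igkc. The nearest shared peak beyond Igkc was 25.6 kb from it. Of the 24 shared peaks of Igk and its flanks 1 held the CTCF consensus and 0 the RUNX consensus.

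Igl had 2 peaks within the locus, 1 in each replicate, and they did not overlap. The one of replicate 1 (chr16:19146716-19146865) scored 28 and lay between the 2 groups of segments, 48208 bp from Iglc4. The one of replicate 2 (chr16:19236936-19237085) scored 10, and was 4196 bp from Iglv3.

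Of 6 coding genes listed in the loci or beside them, 3 had a promoter peak in both replicates (50%, against the 62.2% of all coding genes). The promoters of Zfp386, beside the distal end of Igh, and Rpia, beyond Igkc, had peaks in both replicates, with best scores of 129 and 133, and 130 and 137. Adam6a and Adam6b, between the Igh V and D segments, and Olfr164, near Igl, had none in either.

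Genes of antibody-making cells were split. Both replicates had a promoter peak at 12 of 22 B cell and plasma cell genes (54.5%), near the 62.2% of all coding genes. Cd79a and Ms4a1, surface proteins of B cells, had none in either replicate. The same held for Vpreb3, and for Vpreb2 and Igll1, parts of the surrogate light chain of B cell precursors. Vpreb1 had 1 in replicate 2 with a score of 18, and Blnk 1 in replicate 1 with a score of 30. Pax5 and Ebf1, the factors that set the B cell lineage, had promoter peaks with best scores of 117 and 113, and 119 and 109. Pou2af1 and Pou2f2, which act through the octamer, had 120 and 111, and 112 and 117. Jchain, of the antibody joining chain, had none, while Xbp1 and Prdm1, plasma cell regulators that other cells also use, had 126 and 133, and 95 and 106. Of 10 B cell markers, 5 had a promoter peak in each replicate and 4 had one in both. The part of B cells of the thymus in the Igh peaks was not tested.

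Promoter peaks in both replicates were found for all 10 genes of the recombination machinery and its regulators. Rag1 and Rag2 had best scores of 119 and 126, and 113 and 113, and Dntt, which adds bases at the joins, had 44 and 45. Tcf3 and Tcf12, which encode E proteins that bind E-boxes, had 130 and 137, and 116 and 128.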

How the data were processed

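DNase-seq libraries of newborn thymus were compared as 1 group of 2 replicates, with no paired or grouped test. For each library the authors deposited peaks with a score in whole numbers and hotspots with a −log10 q-value limited to 100, per the text that accompanies the files, called on mm10 for that library alone. Not given in the sources used here are the aligner, the callers, their thresholds and the depth, which leaves the precision of each call unknown. Segments came from GENCODE M21 and sequence from GRCm38, the assembly named mm10.

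Peaks were counted within 1000 bp of each segment and over each locus with 50 kb on each side. Backgrounds for segments and for the 200 bp windows are windows of matching length without gaps in the assembly, laid end to end. Stretches of locus length and the densities of the main chromosomes include assembly gaps. Consensus matches were exact and on both strands. Counts were made with Python 3.11.15, numpy 2.4.6 and pandas 2.3.3, and the counting was checked on simulated data. The segment rule and the gene lists were chosen with earlier results of these data known, and the V segment 3′ windows after the peaks had been seen. Named were all D, J and C segments, up to 10 V segments per locus by mean score, V subgroups, the strongest shared peak of each region, and the listed genes, of which some are not reported here.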

Additional observations from a re-analysis of the deposited data

How the results depend on the processing

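No paired analysis was possible because there was 1 group. Of 75 values under 12 other settings, 59 stayed within 1.5 times the value reported. Igk and Igl had 0 segments with a shared peak under every setting that used both replicates (windows of 500 and 2500 bp and pseudogene segments included), while Igh had 49, 68 and 70 under those settings. With the stronger 50% of peaks, Igh fell from 56 to 18 segments, from 182 to 63 shared peaks and from 120 to 29 peaks in 1 replicate, Igk from 24 to 10 and from 26 to 4, and Igl from 2 to 0, as fewer peaks enter. Without flanks Igk had 11 shared peaks, and with 100 kb flanks 44. With 100 kb flanks Igl had 1 shared peak and 4 in 1 replicate. Without replicate 2 or without replicate 1, counting all peaks of the other, segments with a peak ranged from 63 to 65 at Igh and from 1 to 2 at Igk, and locus peaks from 237 to 252 at Igh, from 36 to 38 at Igk and were 1 at Igl. Hotspots in place of peaks gave 17 in 1 replicate at Igk, and the cause was not tested.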
